A study of Mus musculus with 6 samples.

Results

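Collagens are the main structural proteins of the extracellular matrix, and each is built from 3 chains that wind into a triple helix. Fibrillar collagens assemble into the fibrils of connective tissue, collagen IV forms the network of basement membranes, and further types coat fibrils, anchor them to epithelia or span the cell membrane. In the colon most of them are made by fibroblasts, smooth muscle and other stromal cells, whereas collagen IV and XVIII are laid down where epithelium and vessels meet the stroma. The collagen genes were taken as all genes of the deposited table whose name consists of Col, a number, the letter a and a number. This rule gave 44 of 54167 genes, of which 11 encode fibrillar chains, 8 basement membrane chains and 25 chains of other types. No expression value entered this name rule, but the family was chosen with earlier results of these data known.

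RNA-seq was carried out on 6 mouse colorectal tumors of strain C57BL/6J, 3 labelled WT from Trp53fl/fl mice and 3 from VP mice, that is, Pvillin-Cre + Trp53fl/fl. Both genotypes carried the floxed Trp53 alleles, and the VP mice also carried Cre under the villin promoter, which is active in intestinal epithelium and not in the stromal cells that make most collagen. Tumors with Cre but without floxed alleles were not analysed here. Mice of both genotypes, males of 8 weeks according to the methods, were injected with the carcinogen azoxymethane (AOM) at 10 mg/kg and then drank water with 2.5% of the colitis-inducing agent dextran sulfate sodium (DSS) in repeated courses of 7 days, until tumors were taken on day 98. The labels number the tumors of a genotype without saying that they came from separate mice, so the p-values measure the spread between these samples.

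Expression was read as TPM, an abundance unit scaled to the same total in every library and divided by transcript length, so that levels can be compared between genes. TPM keep no read counts, and the depth of each tumor is unknown. Differences are given on the log2(TPM + 1) scale as VP minus Trp53fl/fl, a scale that understates the change of weakly expressed genes, and were tested with limma over the 15117 genes that reached 1 TPM in at least 3 tumors. Trp53 itself lay between 99.3 and 147 TPM in the Trp53fl/fl tumors and between 27.8 and 38.45 TPM in the VP tumors, a difference of -1.87 (limma adjusted p = 0.0207). Its adjusted p was 0.0986 without Trp53fl/fl replicate 1, 0.0553 without Trp53fl/fl replicate 3, 0.0583 without VP replicate 1 and 0.0938 without VP replicate 2. A gene's TPM covers all of its exons, also those outside the floxed part.

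The tumors held the markers of epithelium and of stroma. The summed TPM of 12 epithelial markers lay between 11359 and 11872 in the Trp53fl/fl tumors and between 12840 and 13912 in the VP tumors, without overlap, and 3 of the 12 were higher in VP tumors at an unadjusted p under 0.05, where 4.51% of all genes tested were higher and 8% lower. The 16 fibroblast markers summed to 836 to 958 TPM and to 666 to 937 TPM in the same order. Pdgfra was lower and Twist2, at only 0.81 to 2.44 TPM over the 6 tumors, higher at that threshold. The sums were 521 to 859 and 442 to 1399 TPM for 10 smooth muscle markers, 150.2 to 189 and 178 to 202 TPM for 10 endothelial markers, and 51.4 to 68.7 and 38.7 to 62.8 TPM for 6 pericyte markers. The 8 leukocyte markers summed to 391 to 449 and 385 to 550.2 TPM, and 6 markers of enteric glia, of which 2 passed the filter, to 40.7 to 56.2 and 43.4 to 54.8 TPM. Vwf, 1 of the 10 endothelial markers, and Tyrobp, 1 of the 8 leukocyte markers, were also higher in VP tumors at that threshold. Both lay wholly higher, as did 6.03% of all genes tested. None of these markers was at 0 in all 6 tumors.

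Of the 44 collagen genes, 29 passed the filter, namely 7 of 11 fibrillar, 5 of 8 basement membrane and 17 of 25 other genes. The levels were very uneven. Col3a1, Col4a1, Col1a1 and Col1a2 together held 55.0% of all collagen TPM, and the 12 most abundant genes held 89.8%. All collagens together summed to 1339, 1366 and 1500 TPM in the 3 Trp53fl/fl tumors and to 1316, 1662 and 1335 TPM in the 3 VP tumors, so the genotypes overlapped. This was 0.132% to 0.166% of all TPM of a tumor. In bulk tissue, fewer cells of a type and less RNA per cell cannot be told apart.

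**Figure D1:**
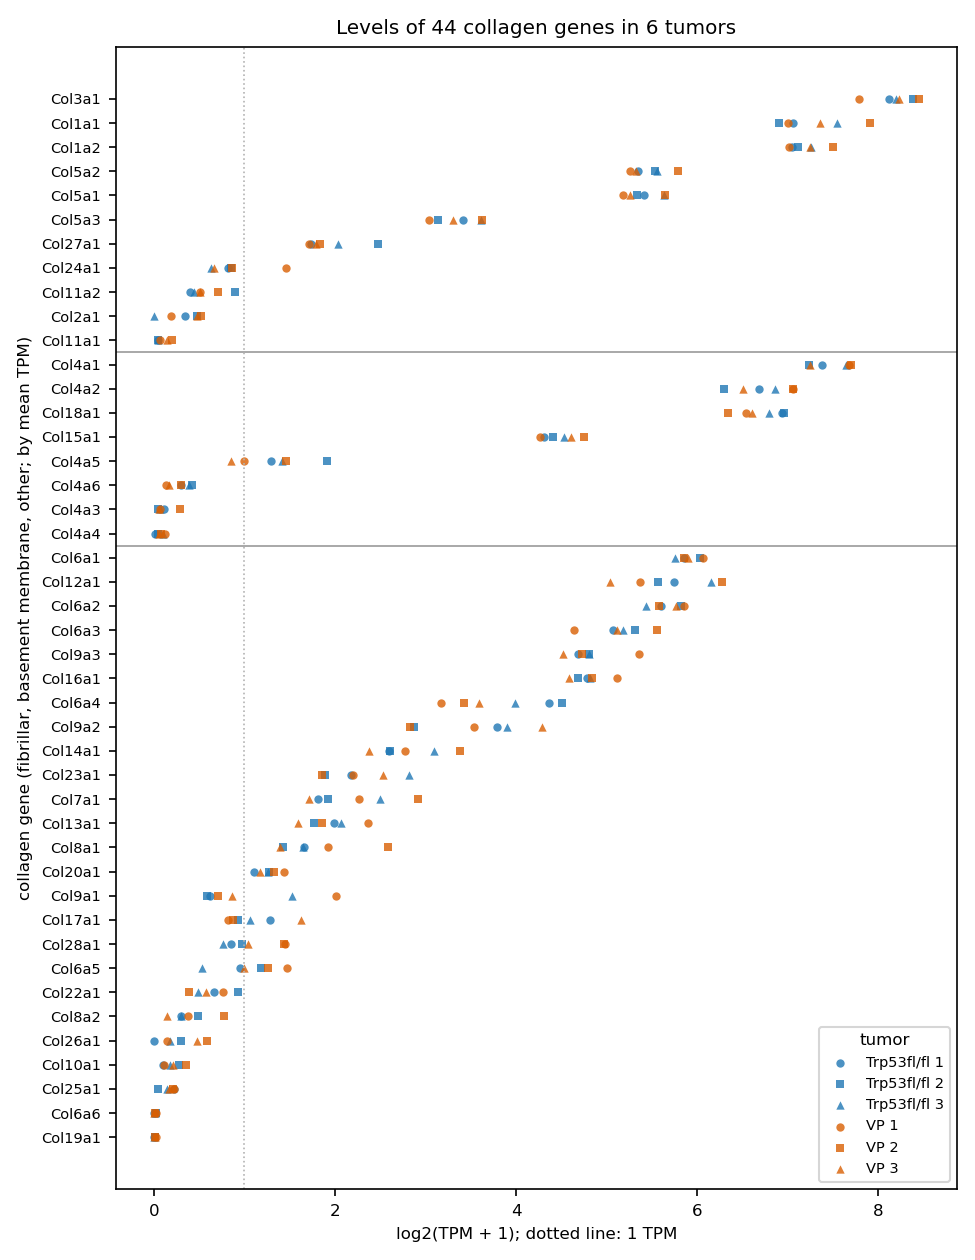
Level of each of the 44 collagen genes on the log2(TPM + 1) scale (x axis), by gene (y axis, grouped into fibrillar, basement membrane and other, ordered by mean TPM), with 1 point per tumor, blue for Trp53fl/fl and orange for VP. Col3a1 is the highest of all, and 15 genes lie below the filter, most of them left of the dotted line at 1 TPM in every tumor.

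In the order of the mean levels, Col3a1 (294 TPM over the 6 tumors) stood above Col4a1 (179 TPM) in 6 of 6 tumors. The next places were not settled, since Col4a1 exceeded Col1a1 (161 TPM) in 4 of 6 tumors, Col1a1 exceeded Col1a2 (147 TPM) in 4, and Col1a2 exceeded Col4a2 (108 TPM) in 5. Col4a2 and Col18a1 (104 TPM) changed places, each being the higher in 3 tumors. A step followed below Col18a1, which exceeded Col6a1 (59.3 TPM) in 6 of 6 tumors. Col6a1, Col12a1, Col6a2, Col5a2 and Col5a1, with means of 41.8 to 59.3 TPM, overlapped their neighbours, and Col5a1 stood above Col6a3 (35.03 TPM) in 6 of 6 tumors.

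No collagen gene differed between the genotypes at an adjusted p under 0.05 by limma, against 25 of all 15117 genes tested (0.165%). At an unadjusted p under 0.05, 2 of the 29 collagen genes passed, against 12.5% of all genes tested. Both were lower in VP tumors, namely Col6a4 and Col18a1, where 8% of all genes were lower at this threshold, and 0 were higher, where 4.51% of all genes were. The same 2 genes were the only tested collagens whose 3 VP tumors all lay below the 3 Trp53fl/fl tumors, against 13.3% of all genes, and 1 tested collagen, Col28a1, lay wholly above, against 6.03%. The median difference of the 29 genes was 0.06, with 17 above and 12 below 0, and that of all genes tested was -0.07. The 95% interval of the difference stayed within 1 unit of log2(TPM + 1) in either direction for 23 of the 29 genes. It reached past 1 unit for the other 6. On this scale 1 unit is a 2-fold change of TPM + 1, which for weakly expressed genes is more than a 2-fold change of TPM.

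**Figure D2:**
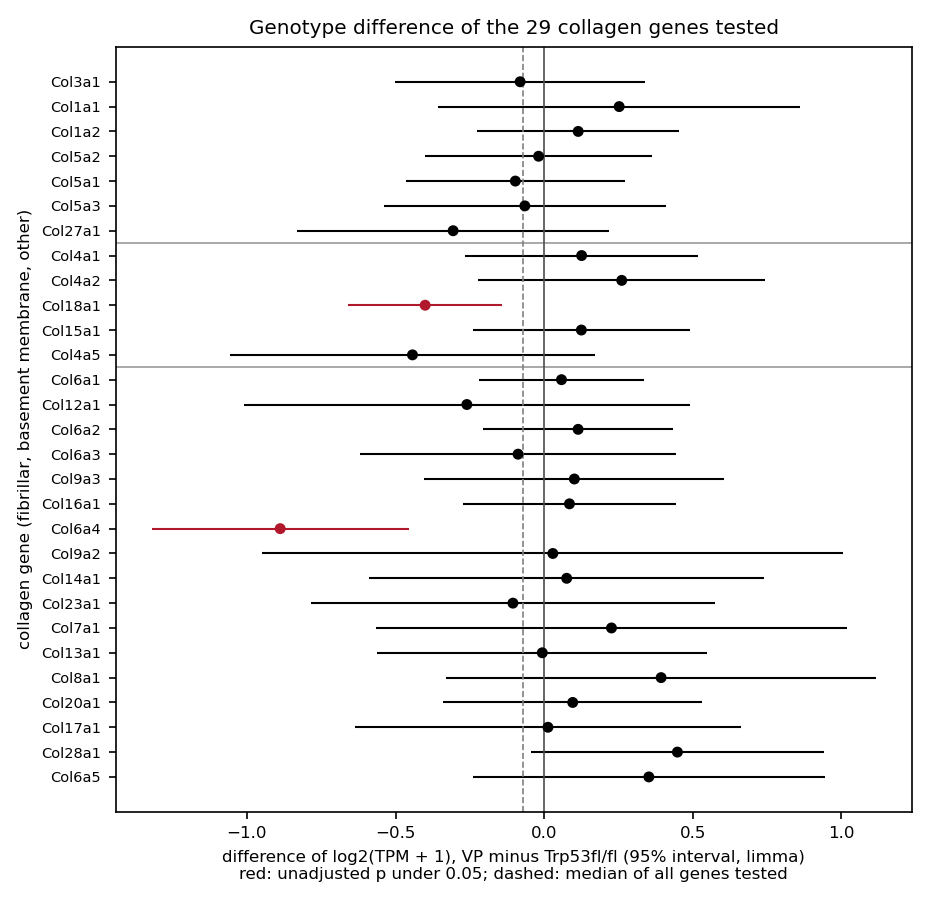
Difference between the genotypes on the log2(TPM + 1) scale, VP minus Trp53fl/fl (x axis), for the 29 collagen genes tested (y axis), with points for the limma estimate and lines for its 95% interval. Col6a4 and Col18a1, in red, are the 2 genes with an unadjusted p under 0.05, and the intervals of the other 27 cross 0.

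The fibrillar collagens overlapped between the genotypes, with sums of 635, 686 and 739 TPM in the Trp53fl/fl tumors and of 559, 885 and 700.1 TPM in the VP tumors. Col3a1, the chain of the homotrimeric collagen III, was at 277, 332 and 292 TPM against 219, 348 and 298 TPM, a difference of -0.08 (95% interval -0.50 to 0.34). Col1a1, which supplies the larger share of chains to collagen I, was at 132, 119 and 186 TPM against 127, 238 and 162 TPM, a difference of 0.25 (interval -0.36 to 0.86). Its partner chain Col1a2 was at 131, 137 and 152 TPM against 128, 180.4 and 151 TPM, a difference of 0.11 (interval -0.23 to 0.46). For each of these genes VP replicate 2 was the highest tumor of all 6, and the genotypes overlapped.

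Collagen V forms mixed fibrils with collagen I and limits their width. Col5a1 was at 41.5, 39.2 and 48.7 TPM in the Trp53fl/fl tumors against 35.4, 48.9 and 37.2 TPM in the VP tumors, a difference of -0.10 (interval -0.47 to 0.27). Col5a2 was at 39.6, 45.2 and 46.0 TPM against 37.3, 54.3 and 39.1 TPM, a difference of -0.02 (interval -0.40 to 0.36). Again the VP tumors spanned the Trp53fl/fl tumors from below and above. Col5a3 lay between 7.23 and 11.4 TPM over the 6 tumors and Col27a1 between 2.27 and 4.58 TPM, both with overlap. The median difference of the 7 tested fibrillar genes was -0.06. It was -0.22 without VP replicate 2, 0.08 without VP replicate 1 and 0.02 without Trp53fl/fl replicate 3, so that its sign rested on single tumors.

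Among the fibrillar genes the spread lay between VP tumors more than between the genotypes. VP replicate 2 was the highest of the 6 tumors for 6 of the 7 tested fibrillar genes, all but Col27a1, and VP replicate 1 was the lowest for 6 of the 7, all but Col1a1. The summed smooth muscle markers were highest in VP replicate 2 (1399 TPM) and lowest in VP replicate 3 (442 TPM). VP replicate 1, the lowest for most fibrillar genes, was at 910 TPM, above the 3 Trp53fl/fl tumors (521 to 859 TPM). The summed fibroblast markers of VP replicate 2 were the lowest of the 6 tumors (666 TPM, of which Vim made up 297 TPM). With Vim taken off the list they were the highest (369 TPM), close to VP replicate 3 (364 TPM). VP replicate 1 was then at 317 TPM, within the range of the Trp53fl/fl tumors (305 to 347 TPM). The part of these cell types in the fibrillar values was not tested. Over the 29 tested collagens the standard deviation of log2(TPM + 1) was larger among the VP tumors for 22 genes (75.9%), against 47.8% of all genes tested. The median coefficient of variation of the collagens was 14.7% among the Trp53fl/fl tumors and 22.8% among the VP tumors. With 3 tumors a genotype these are descriptions, and collagen genes of the same tumor are not independent.

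**Figure D3:**
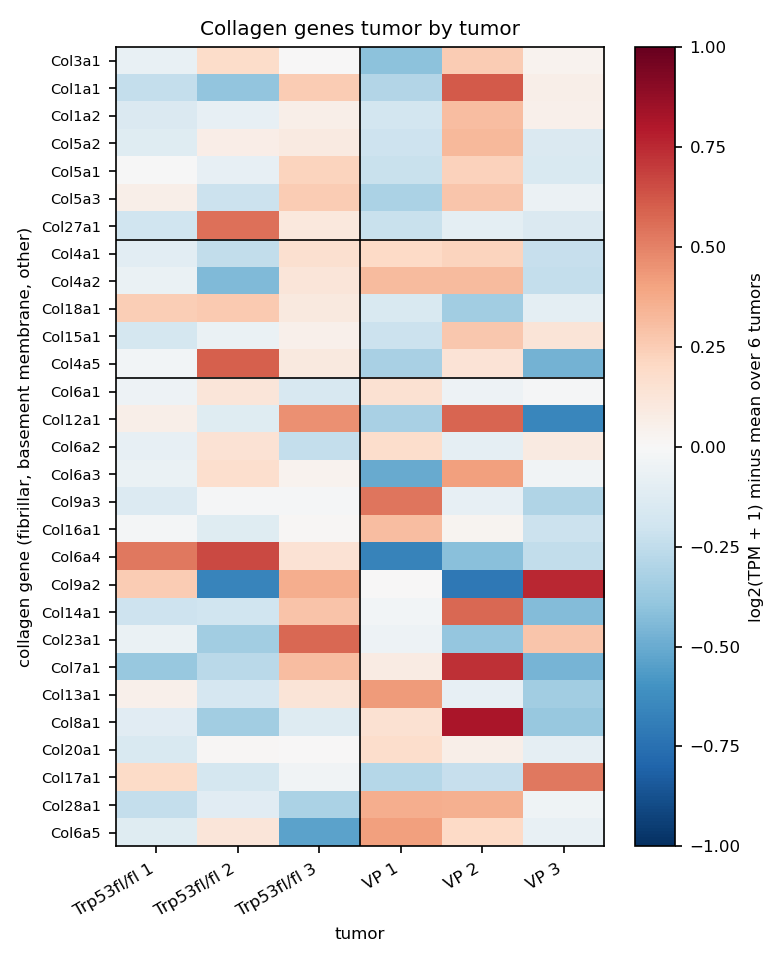
Each tested collagen gene (y axis) in each tumor (x axis), coloured by its log2(TPM + 1) minus the mean of that gene over the 6 tumors. The 6 fibrillar genes from Col3a1 to Col5a3 are darkest red in VP replicate 2 and darkest blue or nearly so in VP replicate 1, whereas Col6a4 and Col18a1 separate the 3 left columns from the 3 right ones.

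Collagen IV is the scaffold of every basement membrane, and its common form joins the chains of Col4a1 and Col4a2. Col4a1 was at 165, 149 and 198 TPM in the Trp53fl/fl tumors against 203, 207 and 151 TPM in the VP tumors, a difference of 0.13 (interval -0.27 to 0.52). Col4a2 was at 101, 77.7 and 115 TPM against 133, 132 and 89.8 TPM, a difference of 0.26 (interval -0.22 to 0.74). Both chains were high in VP replicates 1 and 2 and low in VP replicate 3, and the genotypes overlapped. Col4a5, a chain of the less common networks, was at 0.80 to 2.77 TPM with overlap, and Col4a3, Col4a4 and Col4a6 stayed below 1 TPM in every tumor, reaching at most 0.22, 0.09 and 0.34 TPM.

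The genes Col4a1 and Col4a2 lie head to head and run away from each other. In the RefSeq promoter table of GRCm38.p6 their annotated start sites are the 2 ends of chr8:11312805-11312826, so that the transcripts overlap by 22 bases on opposite strands. The ratio of Col4a1 to Col4a2 TPM was 1.63, 1.92 and 1.72 in the Trp53fl/fl tumors and 1.53, 1.57 and 1.68 in the VP tumors. It varied 1.25-fold, while Col4a1 itself varied 1.39-fold and Col4a2 1.71-fold. The part of the head-to-head starts in this was not tested.

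Col18a1 (ENSMUSG00000001435) encodes collagen XVIII, a heparan sulfate proteoglycan of basement membranes whose C-terminal fragment is endostatin. It was at 122, 123 and 110.0 TPM in the Trp53fl/fl tumors against 92.1, 80.3 and 95.9 TPM in the VP tumors. The highest VP tumor lay below the lowest Trp53fl/fl tumor. The difference was -0.40 (SE 0.11, interval -0.66 to -0.14) and missed the adjusted threshold (limma adjusted p = 0.295, 0.122 to 0.664 over the alternatives). Its closest relative Col15a1, which encodes collagen XV of the same multiplexin type, was at 18.8, 20.3 and 22.1 TPM against 18.2, 25.8 and 23.4 TPM, a difference of 0.13 with overlap. The ratio of Col18a1 to Col15a1 was 6.48, 6.07 and 4.98 in the Trp53fl/fl tumors against 5.06, 3.11 and 4.10 in the VP tumors, and the lowest of the first 3 lay below the highest of the others. The summed epithelial markers lay wholly higher in the VP tumors, and their part in the Col18a1 values was not tested.

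Col6a4 (ENSMUSG00000032572) had the largest difference of the tested collagens in either direction. It encodes an alternative to the Col6a3 chain of collagen VI, the beaded filament that surrounds cells and links them to the fibrils. It was at 19.6, 21.7 and 14.8 TPM in the Trp53fl/fl tumors against 8.02, 9.70 and 11.1 TPM in the VP tumors. All 3 VP tumors lay below the lowest Trp53fl/fl tumor. The difference was -0.89 (SE 0.18, interval -1.32 to -0.46) and missed the adjusted threshold (limma adjusted p = 0.199, 0.103 to 0.559 over the alternatives). It was between -1.04 and -0.78 with any 1 tumor left out.

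The common chains of collagen VI overlapped between the genotypes. Col6a1 was at 57.0, 64.6 and 52.8 TPM in the Trp53fl/fl tumors against 65.9, 56.9 and 58.7 TPM in the VP tumors, a difference of 0.06 (interval -0.22 to 0.34). Col6a2 was at 47.4, 55.5 and 42.3 TPM against 56.6, 46.9 and 53.4 TPM, a difference of 0.11 (interval -0.21 to 0.43). Col6a3, the largest of the common chains, was at 32.7, 38.7 and 35.3 TPM against 23.9, 46.0 and 33.6 TPM, a difference of -0.09 (interval -0.62 to 0.44). How far Col6a4 differs from these chains was not tested. The other alternatives to Col6a3 were rare, with Col6a5 at 0.45 to 1.78 TPM and Col6a6 at no more than 0.02 TPM.

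The promoter stretches of Col6a4 and Col18a1 are shown as those of the 2 collagens that passed an unadjusted p under 0.05. They come from the RefSeq promoter table of GRCm38.p6, matched by gene symbol, while the submitters' processing notes name the build mm9 for the expression values. Each is given 5′ to 3′ on the gene's own minus strand, from 250 bases before the annotated start to the last base clear of annotated UTRs. That is chr9:106096784-106096941 for Col6a4 and chr10:77166549-77166780 for Col18a1, which has a second annotated start that is not shown. Capitals mark CCAAT boxes (CCAAT or its reverse complement ATTGG) and GC boxes (GGGCGG or its reverse complement CCGCCC).
Col6a4: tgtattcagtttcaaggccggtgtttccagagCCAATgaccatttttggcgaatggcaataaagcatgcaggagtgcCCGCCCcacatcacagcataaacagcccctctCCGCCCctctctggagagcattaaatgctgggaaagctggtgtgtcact
Col18a1: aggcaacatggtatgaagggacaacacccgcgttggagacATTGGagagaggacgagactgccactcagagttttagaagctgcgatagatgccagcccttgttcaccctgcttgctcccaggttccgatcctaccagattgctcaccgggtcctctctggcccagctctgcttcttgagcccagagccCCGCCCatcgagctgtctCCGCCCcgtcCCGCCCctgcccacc
Both stretches hold a CCAAT box and GC boxes on the reverse strand, 2 in Col6a4 and 3 in Col18a1. Over the 250 bases before each start, searched on both strands, a CCAAT box was found in 13 of 38 collagen promoters (34.2%) and in 33.8% of all 32851 promoters. A GC box was found in 22 collagen promoters (57.9%) and in 32.7% of all, a TATA box (TATAAA) in 5 (13.2%) and in 12.4%, and the p53 half-site in 3 (7.89%) and in 7.13%. The 38 promoters belong to 35 of the 44 genes, and neither the p53 half-site nor TATAAA was among the letters of the Col6a4 or Col18a1 windows.

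The ratio between the chains of a trimer was steadier than the chains themselves in some collagens and not in others. Col6a1 to Col6a2 was the steadiest pair, with ratios of 1.10 to 1.25 over the 6 tumors. Col5a1 to Col5a2 lay between 0.867 and 1.06. Col1a1 to Col1a2, which enter the collagen I trimer in unequal numbers, lay between 0.862 and 1.32. The ratio of Col6a3 to Col6a1 ranged 2.23-fold, from 0.363 in VP replicate 1 to 0.809 in VP replicate 2, and the 3 Trp53fl/fl tumors fell between them at 0.574, 0.599 and 0.668. Col6a3 to Col6a2 ranged 2.33-fold, from 0.422 to 0.982, with its ends in the same 2 tumors. Col9a3 to Col9a2, both chains of collagen IX, ranged 3.62-fold, from 1.18 in VP replicate 3 to 4.25 in Trp53fl/fl replicate 2.

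**Figure D4:**
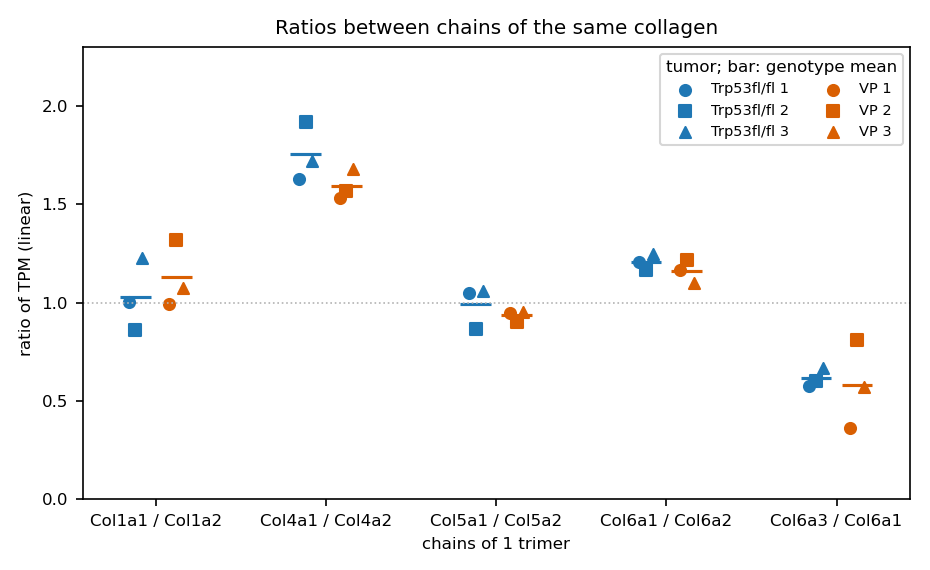
Ratio of TPM between 2 chains of the same collagen (y axis, linear) for 5 pairs (x axis), with 1 point per tumor, blue for Trp53fl/fl and orange for VP, and bars for the genotype means. Col6a1 to Col6a2 stays between 1.10 and 1.25, and Col6a3 to Col6a1 spreads from 0.363 to 0.809, with both ends in VP tumors.

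The fibril-associated collagens sit on the surface of fibrils. Col12a1, the most abundant of them, was at 52.7, 46.4 and 69.9 TPM in the Trp53fl/fl tumors against 40.4, 76.5 and 31.8 TPM in the VP tumors. Its highest and its lowest tumor were both VP, and its difference of -0.26 had an interval of -1.01 to 0.49. The difference was -0.62 without VP replicate 2 and 0.0023 without VP replicate 3. Col16a1 and Col9a3 lay between 21.8 and 39.9 TPM, Col9a2 between 6.09 and 18.6 TPM, Col14a1 between 4.18 and 9.42 TPM and Col20a1 between 1.15 and 1.70 TPM, all with overlap between the genotypes.

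The remaining types were weakly expressed. Col7a1, which forms the anchoring fibrils beneath epithelia, was at 2.29 to 6.54 TPM, the network chain Col8a1 at 1.63 to 5.01 TPM, and the transmembrane collagens Col13a1, Col17a1 and Col23a1 at 0.76 to 6.07 TPM, with the genotypes overlapping for each. Col28a1 was at 0.80, 0.96 and 0.70 TPM in the Trp53fl/fl tumors against 1.73, 1.71 and 1.06 TPM in the VP tumors, a difference of 0.45 (interval -0.04 to 0.94, limma adjusted p = 0.426). It passed the filter through its VP tumors alone, in 3 of 3 of which and in 0 of 3 Trp53fl/fl tumors it reached 1 TPM, so its lack of overlap is no result of its own.

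The 15 genes below the filter reached between 0.02 and 3.02 TPM in their highest tumor, and 13 of them stayed below 1 TPM in every tumor. Col9a1 and Col24a1 reached 3.02 and 1.74 TPM, both in VP replicate 1. Col2a1, Col10a1, Col11a1 and Col11a2, which are only some of the collagens of cartilage, reached at most 0.43, 0.28, 0.15 and 0.86 TPM. Col22a1, Col8a2, Col26a1, Col25a1 and Col19a1 reached at most 0.91, 0.71, 0.50, 0.17 and 0.02 TPM.

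Genes that make, process or accompany collagen were grouped into 7 lists, and no gene of any of these lists passed an adjusted p under 0.05 by limma. At an unadjusted p under 0.05, 4 genes of the lists were higher and 4 lower in VP tumors of 91 tested, against 4.51% and 8% of all genes. Collagen chains are hydroxylated and folded in the endoplasmic reticulum. Of 22 genes for these steps 21 were tested, 2 were higher at an unadjusted p under 0.05 and 0 lower, with a median difference of 0.03. P4ha2, a catalytic subunit of prolyl 4-hydroxylase, was at 11.3, 11.4 and 10.8 TPM in the Trp53fl/fl tumors against 13.2, 20.1 and 14.0 TPM in the VP tumors, a difference of 0.44 (limma adjusted p = 0.381). Fkbp9, a prolyl isomerase of the endoplasmic reticulum, was at 37.1, 30.9 and 34.4 TPM against 43.7, 45.2 and 39.2 TPM, a difference of 0.32 (limma adjusted p = 0.360). Both lay wholly higher in the VP tumors, 2 of the 21 genes, against 6.03% of all genes tested.

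Procollagen leaves the endoplasmic reticulum in enlarged carriers. Of the 13 genes for its export none had an unadjusted p under 0.05. The smallest values belonged to Tmem39a (-0.31) and Creb3l1 (0.56), both with overlap. Another gene, 1 of the 13, lay wholly lower in the VP tumors, against 13.3% of all genes tested. The propeptides are then cut off outside the cell, and of 10 genes for this step 6 were tested, with none at that threshold and differences of 0.15 for the protease gene Mep1a and 0.13 for Adamts2.

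Lysyl oxidases cross-link the finished fibrils. All 5 of them were tested, and 1 was higher at an unadjusted p under 0.05, as were 4.51% of all genes. Lox was at 11.4, 11.8 and 11.8 TPM in the Trp53fl/fl tumors against 19.7, 21.1 and 12.97 TPM in the VP tumors, a difference of 0.55 without overlap (limma adjusted p = 0.341). Loxl1, next in order, differed by 0.19 with overlap. Another of the 5 genes lay wholly lower in the VP tumors, so 1 lay wholly higher and 1 wholly lower. Over all genes tested the shares were 6.03% and 13.3%.

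Of 23 proteins that bind fibrils or set their width and spacing, 22 were tested, with 1 higher and 2 lower at an unadjusted p under 0.05 and a median of -0.13. Over all genes tested 4.51% were higher and 8% lower at that threshold. Lum, which encodes the small proteoglycan lumican, was at 9.94, 12.7 and 12.5 TPM against 7.15, 9.11 and 6.45 TPM, a difference of -0.57 (limma adjusted p = 0.313). Dpt, for dermatopontin, was at 23.8, 29.5 and 26.0 TPM against 13.9, 18.1 and 23.4 TPM, a difference of -0.52 (limma adjusted p = 0.362). Vcan, for the large proteoglycan versican, was at 4.87, 6.87 and 4.78 TPM against 7.33, 7.58 and 12.4 TPM, a difference of 0.61 (limma adjusted p = 0.366). Of the 22 genes 3 lay wholly lower in the VP tumors, Lum and Dpt among them, and 1, Vcan, lay wholly higher. Over all genes tested the shares were 13.3% and 6.03%. Of the 14 tested fibroblast markers 8 had differences above and 6 below 0, with a median of 0.10. Pdgfra and Gli1 among them lay wholly lower and Twist2 wholly higher in the VP tumors. Twist2 reached 1 TPM in 1 of 3 Trp53fl/fl and in 3 of 3 VP tumors, and its nearest values were 1.70 and 1.71 TPM. It passed the filter only with its VP tumors, so its lack of overlap is no result of its own. The part of fibroblasts in all of these values was not tested.

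The non-collagen partners in basement membranes are laminins, nidogens and proteoglycans. Of 16 such genes 15 were tested, with 0 higher and 2 lower at an unadjusted p under 0.05 and 4 wholly lower in the VP tumors. Of all genes tested 8% were lower at that threshold and 13.3% wholly lower. Their summed TPM was 624, 606 and 644 in the Trp53fl/fl tumors and 595, 595 and 519 in the VP tumors, while the median difference of the 15 genes was -0.02. Lama5, the laminin chain most common beneath mature epithelia, was at 67.0, 85.2 and 84.1 TPM against 58.1, 53.5 and 45.7 TPM, a difference of -0.58 (limma adjusted p = 0.269). Lamb1 was at 42.4, 43.7 and 39.3 TPM against 37.2, 34.5 and 31.0 TPM, a difference of -0.28 (limma adjusted p = 0.382). Of 12 collagen receptors 9 were tested and none had an unadjusted p under 0.05, with the smallest values for Itgb1 (-0.17) and Itga11 (-0.22).

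**Figure D5:**
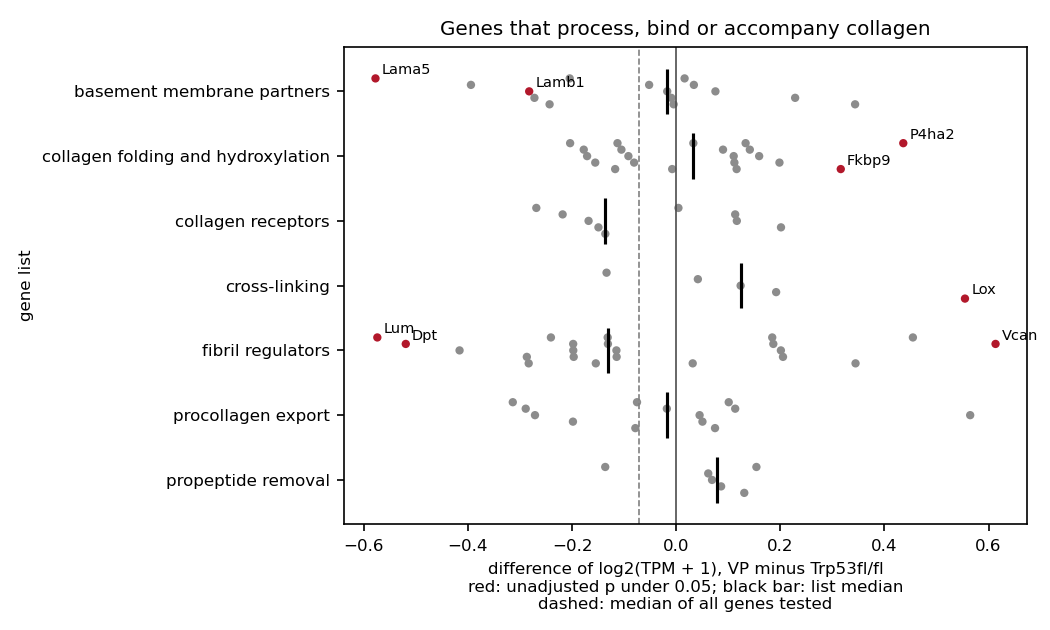
Difference between the genotypes on the log2(TPM + 1) scale, VP minus Trp53fl/fl (x axis), for the tested genes of 7 lists (y axis, 1 point per gene, spread vertically for legibility), with black bars for list medians and a dashed line for the median of all genes tested. The 8 genes with an unadjusted p under 0.05 are red and named, and Lama5 and Lum lie farthest to the left of them.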

How the data were processed

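According to the methods, poly(A) RNA was selected from total RNA of high integrity, and libraries were read from both ends on an Illumina sequencer. The authors deposited TPM per gene for each of the 6 tumors, without pooling. The submitters' processing notes name HISAT2, StringTie and the build mm9, and their versions are not given in the sources used here. Since the TPM of a tumor add up to a fixed total, each value depends on that tumor's other genes. No column of values was left unassigned.

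Genes that reached 1 TPM in 3 or more tumors were put on the log2(TPM + 1) scale and compared by limma 3.58.1 under R 4.3.3 (empirical Bayes with trend, Benjamini-Hochberg adjustment over all 15117 genes). In data simulated for this comparison over 15117 genes with 200 changed, limma recovered 139, among them 87 of 95 changed 4-fold, with 7 false calls among 146. The changes were 2-fold or 4-fold in TPM + 1. They were placed only in genes with a mean log2(TPM + 1) above 3, with noise independent between genes. The differences of the tested collagens ran from -0.89 to 0.45, so the simulation gives no recovery rate for differences of that size or for weaker genes. Values in every tumor are given for tested collagens that were among the 12 most abundant, had an unadjusted p under 0.05 or did not overlap between the genotypes, for chain partners, and for the genes of each list with an unadjusted p under 0.05. The 2 smallest p-values are named where a list had fewer. The collagen family and the gene lists were chosen with earlier results of these data known. Promoters came from RefSeq (GRCm38.p6), figures from matplotlib 3.10.9. The alternatives were centring on epithelial or on fibroblast markers, quantile normalization, median-of-ratios rescaling, a mean of 5 TPM or more as the filter, no filter, a pseudocount of 0.1, no trend in the empirical Bayes step, a block for the replicate number, and leaving out 1 tumor at a time.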

Additional observations from a re-analysis of the deposited data

How the results depend on the processing

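In all 15 alternatives 0 collagen genes and 0 genes of the 7 collagen lists passed an adjusted p under 0.05 by limma, and the smallest adjusted p of a collagen was 0.103, for Col6a4 with centring on epithelial markers. Col6a4 and Col18a1 had an unadjusted p under 0.05 in every one of the alternatives. The number of collagens at that threshold was 4 without a filter on low values, with Col28a1 and Col4a6 added, and 2 to 5 with 1 tumor left out, the 5 being without VP replicate 3, with Col28a1, Col4a2 and Col8a1 added. Of all genes, 25 passed the adjusted threshold, against 7 without a filter, 40 with epithelial centring and 6 to 28 with 1 tumor left out. Of the calls 12 were higher and 13 lower in VP tumors, against 13 and 9 with median-of-ratios rescaling and 13 and 27 with epithelial centring. The no-filter setting tested more genes, and the other causes were not tested.

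Epithelial centring moved the median of all genes tested from -0.07 to -0.24, and the values under it are to be read relative to that shift. Under it the median of the basement membrane collagens was -0.039 and that of the other collagens -0.089. Among genes followed singly, this centring changed the sign for Col4a1 (-0.038), Col1a2 (-0.050), Col6a1 (-0.11), Col6a2 (-0.050), Mep1a (-0.010) and Adamts2 (-0.034). Further tested collagens, such as Col15a1 and Col14a1, were not followed singly, so the list is not complete for the family. Col5a2 changed sign to 0.050 with median-of-ratios rescaling and to 0.0080 with quantile normalization. With 1 tumor left out, the difference ranged from -0.23 to 0.10 for Col3a1, from -0.010 to 0.24 for Col1a2, from -0.18 to 0.081 for Col5a2, from -0.0075 to 0.14 for Col6a1, from -0.62 to 0.0023 for Col12a1 and from -0.32 to 0.14 for Col6a3. The median of the other collagens ranged from 0.036 to 0.17. All of these genes had intervals across 0. The difference of Trp53 stayed between -2.03 and -1.74, with an adjusted p of 0.104 without a filter.

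The labels give both genotypes the replicate numbers 1 to 3. Deviations from the genotype means correlated across genes at 0.02, -0.05 and 0.02 between samples of the same number. Between samples of different numbers the correlations ranged from -0.108 to 0.0952. Deviations from a mean of 3 tumors are not independent, so these values cannot show whether samples of the same number shared an origin. With the replicate number as a block, 10 genes passed the adjusted threshold, 7 higher and 3 lower in VP tumors, and the adjusted p of Trp53 was 0.0883. Depth is unknown, and 3 tumors a genotype left intervals that reach past 1 unit of log2(TPM + 1) for 6 of the 29 tested collagens.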
